A study of Mus musculus with 36 samples.

Results

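The promoters described here are CpG-poor, yet lay inside islands of H3K27me3, the histone mark of Polycomb repression, in hippocampal neurospheres. Of 20807 autosomal protein-coding promoters, taken as 2 kb on each side of the GENCODE gene start in mouse genome build mm10, 9845 were CpG-poor. CpG-poor meant that the 1 kb around the start had a GC content of at most 50% or a ratio of observed to expected CpG of at most 0.6, and olfactory and vomeronasal receptor genes (Olfr, Vmn1r, Vmn2r) were left out. Of the 9845 promoters, 2082 (21.1%) were covered over at least 50% of their bases by islands in both control H3K27me3 libraries of neurospheres, and these 2082 are the members. Islands of those libraries chose the members, so their coverage there is a description only. The comparison sets were the other 7763 CpG-poor promoters, which missed the limit, and 1142 CpG-rich promoters that met the same coverage rule. The excluded receptor genes met the rule at 48 of 1456 promoters (3.30%).

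Chromatin immunoprecipitation sequencing (ChIP-seq) was done on hippocampal tissue of postnatal day 0 and on neurospheres, floating cultures of neural progenitors that were started from hippocampi of that age and passaged in FGF2 and EGF before the assay. Control mice (Ctrl; Kdm2b fl/+ or Kdm2b fl/fl) were compared with conditional knockout mice (cKO; Kdm2b Emx1-delta-CxxC), in which Emx1-Cre removes the CxxC zinc finger of KDM2B. Emx1-Cre acts in progenitors of the dorsal telencephalon, so other cells of the dissected hippocampus keep the intact allele. Each of H2AK119ub1, H3K27me3 and H3K36me2 had 2 libraries for each genotype and source, 24 in all.

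Trimethylation of histone H3 (H3K27me3) is placed by Polycomb repressive complex PRC2, and ubiquitylation of histone H2A (H2AK119ub1) by PRC1. In mammals both complexes gather mainly at CpG islands, and the CxxC domain of KDM2B, a subunit of a variant PRC1, binds unmethylated CpG-rich DNA. Dimethylation of histone H3 (H3K36me2) inhibits PRC2 on the same histone tail and is a substrate of the demethylase domain of KDM2B. Promoters with few CpG dinucleotides belong largely to tissue-specific genes, such as those of blood, muscle, skin and the immune system.

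The 250 bases before the gene start are shown for 5 members of different classes, because CpG content sets the members as a whole apart from the CpG-rich set. Each runs 5′ to 3′ on the gene's strand in mm10, with every CG dinucleotide in capitals. They are the promoters of Tnf (a proinflammatory cytokine; chr17:35202008-35202257, minus strand), Il6 (an interleukin; chr5:30012864-30013113, plus strand), Krt8 (a keratin of simple epithelia; chr15:102004483-102004732, minus strand), Acta1 (skeletal muscle actin; chr8:123894752-123895001, minus strand) and Slc6a5 (a glycine transporter of inhibitory neurons; chr7:49909896-49910145, plus strand).
Tnf: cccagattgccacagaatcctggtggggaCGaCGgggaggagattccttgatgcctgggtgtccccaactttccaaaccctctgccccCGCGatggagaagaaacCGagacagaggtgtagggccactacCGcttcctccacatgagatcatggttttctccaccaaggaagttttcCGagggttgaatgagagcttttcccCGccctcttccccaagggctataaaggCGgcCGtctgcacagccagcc
Il6: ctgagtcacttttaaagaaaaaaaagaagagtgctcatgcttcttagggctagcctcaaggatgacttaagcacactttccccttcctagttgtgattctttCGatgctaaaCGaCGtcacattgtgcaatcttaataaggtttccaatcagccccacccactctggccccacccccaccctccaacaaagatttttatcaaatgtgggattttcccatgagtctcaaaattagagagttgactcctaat
Krt8: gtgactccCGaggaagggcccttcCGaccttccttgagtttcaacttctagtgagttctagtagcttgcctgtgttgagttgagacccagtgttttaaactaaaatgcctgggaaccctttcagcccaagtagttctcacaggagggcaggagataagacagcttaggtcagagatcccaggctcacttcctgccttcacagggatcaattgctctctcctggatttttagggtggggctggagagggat
Acta1: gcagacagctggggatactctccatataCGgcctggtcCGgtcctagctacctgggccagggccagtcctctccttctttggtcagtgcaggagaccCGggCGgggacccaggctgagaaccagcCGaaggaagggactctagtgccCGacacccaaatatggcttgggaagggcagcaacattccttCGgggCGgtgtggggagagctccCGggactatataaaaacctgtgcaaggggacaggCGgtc
Slc6a5: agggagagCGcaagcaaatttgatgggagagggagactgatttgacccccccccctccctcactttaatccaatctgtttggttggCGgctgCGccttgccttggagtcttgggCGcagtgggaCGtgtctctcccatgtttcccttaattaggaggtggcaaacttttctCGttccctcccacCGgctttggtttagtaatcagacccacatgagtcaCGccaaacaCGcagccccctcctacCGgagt

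The stretch held 10 CG dinucleotides at Tnf, Acta1 and Slc6a5, 3 at Il6 and 2 at Krt8. In the 1 kb around the start there were 22 at Tnf, 19 at Il6, 31 at Krt8, 20 at Acta1 and 33 at Slc6a5. None of these is below the median of all members, 19, so the 5 are not the sparsest cases. The letters TATAAA began 29 bases before the start of Tnf and 31 bases before the start of Acta1, and were not found in the last 50 bases before the starts of the other 3 genes. GC content over the 250 bases ran from 42.8% at Il6 to 61.2% at Acta1. In these 5 cases the GENCODE start lay within 153 bases of the RefSeq start.

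Over all members the median GC content of the central 1 kb was 53.1%, against 48.8% in the other CpG-poor promoters and 63.1% in the CpG-rich set. The median ratio of observed to expected CpG was 0.288, against 0.274 and 0.736. Members thus had a median of 19 CG dinucleotides in this 1 kb, where the other CpG-poor promoters had 16 and the CpG-rich promoters 72. Most entered through the CpG ratio alone (1471), 592 met both conditions and 19 met only the GC condition. TATAAA on the gene's strand within 50 bases upstream was found at 99 members (4.76%), against 5.24% of the other CpG-poor promoters, 2.36% of the CpG-rich set and 3.31% of all autosomal promoters.

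The share of members rose with GC content. Of promoters with a GC content up to 40%, 10 of 792 (1.26%) were members. The share was 6.86% for 40 to 45%, 18.7% for 45 to 50%, 28.4% for 50 to 55%, 34.0% for 55 to 60% and 31.3% above 60%. The rise up to 60% was also present among promoters with no CpG-rich 1 kb stretch anywhere in their 4 kb, where the share ran from 0.907% in the lowest bin to 36.3% for 55 to 60%. A CpG-rich stretch of that kind was present at 439 members (21.1%), close to the 18.8% of the other CpG-poor promoters. Members of 1 chromosome ranged from 12.0% of CpG-poor promoters on chromosome 13 to 33.3% on chromosome 15.

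An annotated start can miss the start a tissue uses. A RefSeq start was at hand for 1495 members (71.8%), and 1251 of these (83.7%) had it within 500 bases of the GENCODE start. For 156 members it lay over 2 kb away, and at 56 of those the RefSeq start was CpG-rich. The GENCODE start of Gata3 lay 11434 bases upstream of a CpG-rich RefSeq start, that of Tfap2a 3456 bases and that of Coil 3683 bases. That of Irgm2 lay 15359 bases and that of Ckm 6318 bases upstream of a RefSeq start that was not CpG-rich. The developmental transcription factors had a CpG-rich RefSeq start, at any distance, at 17 of 60 members with an entry (28.3%), against 170 of 1495 (11.4%) over all members.

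Coverage under the rule was close to complete for many members. In both chosen libraries 1008 of the 2082 (48.4%) were covered over 100% of the 4 kb. At the limit, 102 members had 50 to 55% in the lower library, 30 of them exactly 50%, and 78 promoters missed it with 45 to 50%. Just inside were Alkal1 (100% and 50%), Lyg1 (80% and 50%) and Nms (53.7% and 50%). Just outside were Gm10160 (49.8% and 65.0%), Prss44 (49.8% and 94.8%) and 4931409K22Rik (49.8% and 54.8%). Values at this limit describe the rule and carry no difference between the genes on its sides.

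Around the members neurosphere H3K27me3 fell off with distance from the gene start, where the rule places its maximum. In the 2 neurosphere Ctrl libraries 99.4% and 98.1% of members were covered at the gene start, and 45.1% and 42.1% at 20 kb upstream. Merged over both libraries, the members lay in 1764 regions with a median length of 14.8 kb (quartiles 8.20 and 27.8 kb, longest 374 kb). The regions of the CpG-rich set had a median of 19.6 kb. No CpG-rich 1 kb sequence was found anywhere inside 1125 of the 1764 regions (63.8%), and 1283 members (61.6%) lay in such a region. A CpG-rich promoter shared the region with 355 members (17.1%), counted where its 4 kb overlapped the region. Its central 1 kb can lie outside, so these counts can disagree. The region chr10:75922801-75962000 had 0 CpG-rich windows and 1 CpG-rich promoter. By length, 77.9% of member regions under 10 kb, 66.5% of those of 10 to 30 kb and 38.4% of those of at least 30 kb held no CpG-rich sequence. Among all autosomal H3K27me3 regions of these libraries the shares were 91.3% at 4 to 10 kb, 79.7% at 10 to 30 kb and 50.3% at 30 kb or more.

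**Figure D1:**
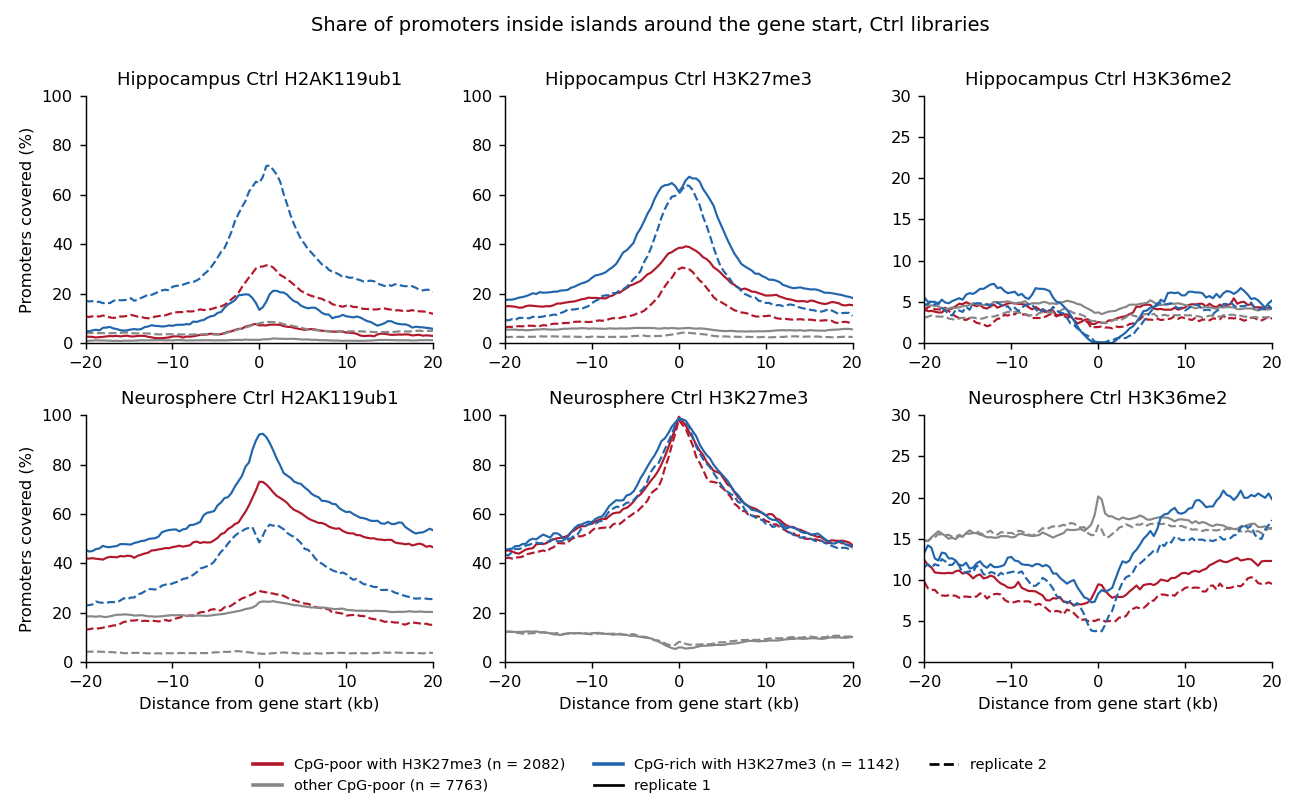
Share of promoters inside islands (%, vertical axis) by distance from the gene start (kb, horizontal axis) in the 12 Ctrl libraries, with 1 panel for each source and mark, solid and dashed lines for replicates 1 and 2, and the H3K36me2 axes drawn to 30%. CpG-poor promoters with neurosphere H3K27me3 (red) were highest within 2 kb of the gene start in H3K27me3 and H2AK119ub1 in both sources, while in neurosphere H3K36me2 they lay below the other CpG-poor promoters (grey), with 9.46% and 5.19% against 20.1% and 16.6% at the start.

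Most regions held a single member (1525), and 239 regions held several, 557 members in all. Members of 1 region share its islands and are not independent of each other. The region with the most members spanned the Hoxb cluster of homeobox genes (chr11:96076401-96377400, 301 kb, 9 members, among them Hoxb1, Hoxb8 and Hoxb13) and also held CpG-rich promoters. The next largest group was of another kind. The Cd300 cluster of myeloid surface receptors (chr11:114987001-115105200, 118 kb) held 8 members, among them Cd300e, Cd300c2 and Cd300ld, with 0 CpG-rich windows in the whole region. A beta-defensin cluster (chr2:152564801-152615200, 50.4 kb) held 5 members with 0 CpG-rich windows, among them Defb19, Defb21, Defb36 and Defb45. A keratin-associated protein cluster (chr7:142234601-142308400, 73.8 kb) held Krtap5-1 and Krtap5-4 among 5 members, with 3 CpG-rich windows. The tumour necrosis factor cluster (chr17:35180001-35217000, 37.0 kb) held Lst1, Ltb, Tnf and Lta, with 6 CpG-rich windows. Regions with 5 members also lay at chr10:75922801-75962000, with Mmp11 and Vpreb3, and at chr10:77665601-77714600, with Tspear. Both had 0 CpG-rich windows.

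By gene symbol, members fell into 17 named classes and a remainder of 1080. The class called developmental transcription factors, matched on symbols such as those of the Hox, Gata and Tfap2 families, had the highest share. It had 92 of 166 CpG-poor promoters (55.4%), where all CpG-poor promoters together had 21.1%. G protein-coupled receptors other than chemosensory ones followed with 59 of 167 (35.3%), then ion channels with 71 of 202 (35.1%), cytokines and chemokines with 42 of 138 (30.4%), and collagens, matrix and adhesion genes with 63 of 207 (30.4%). Muscle genes had 22 of 74 (29.7%), hormones and other secreted proteins 75 of 257 (29.2%) and immune receptors 84 of 352 (23.9%). The lowest shares were those of chemosensory receptors (3 of 80, 3.75%), zinc finger genes (14 of 223, 6.28%), predicted genes (197 of 1421, 13.9%) and cytochrome P450 and other metabolizing enzymes (40 of 258, 15.5%). Classes were matched by symbol and no test was run on them. Some genes of another kind fall in a class this way, such as the receptors Csf1r among cytokines and Cckar among hormones. The transcription factor class also took in Fos, Jun, Stat and Irf symbols. Symbols were matched by how they begin, so this class also took any that begin with Spi, Gli or Esr. Among these are the splicing regulator Esrp1, a member, and the Spink protease inhibitors meant for the defensin class. How many of its genes are not transcription factors was not counted.

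Developmental transcription factors also led when promoters with CpG-rich sequence nearby were taken out. Among promoters with no CpG-rich stretch in their 4 kb their share was 40.2%, against 20.7% over all classes. Muscle genes had 30.3%, ion channels 29.7%, other G protein-coupled receptors 27.4% and cytokines 26.98%. With 1 member counted per region, the developmental transcription factors had 49.7%, defensins 17.8% and keratins 18.9%, against 18.5% over all classes, so that the last 2 classes no longer stood clearly above the whole. Of the 17 named classes, 12 lay above the share of all CpG-poor promoters, 11 without CpG-rich stretches and 10 with 1 member per region.

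**Figure D2:**
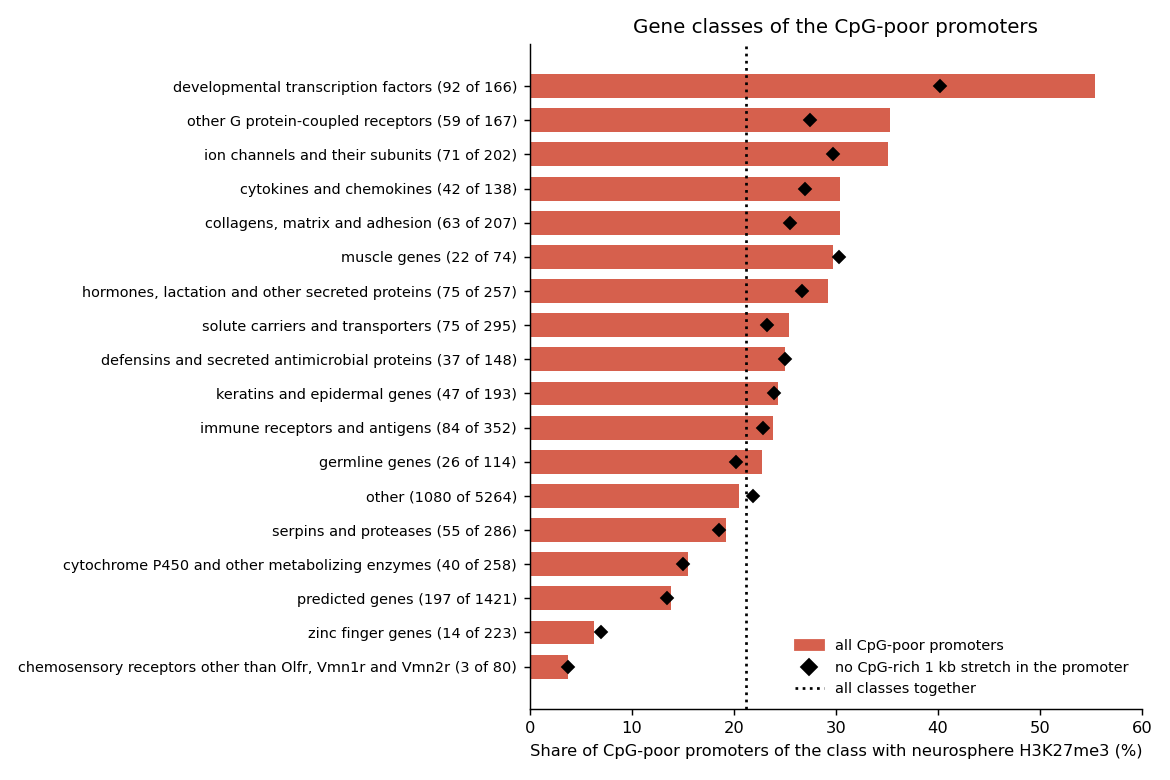
Share of the CpG-poor promoters of each gene class that were members (%, bars), the same among promoters with no CpG-rich 1 kb stretch (diamonds), and the share over all classes together (dotted line, 21.1%). Developmental transcription factors reached 55.4% and chemosensory receptors 3.75%.

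Well-known tissue-specific genes lay on both sides of the rule. Of 42 well-known tissue-specific genes, 37 had a CpG-poor promoter and 10 of those were members (27%), against 21.1% of all CpG-poor promoters. Among the 10 were Gfap (the astrocyte intermediate filament), Cx3cr1 (the microglial fractalkine receptor), Hba-a1 (alpha-globin), Myod1 (the myogenic master regulator), Ckm (muscle creatine kinase), Gh (growth hormone), Il6, Il10 and Tnf. Of the 27 that were not members, 18 had no island in either library, among them Alb (albumin), Ins1 and Ins2 (insulins), Gcg (glucagon), Ifng (interferon gamma) and Cd4. Of the other 9, 6 were covered over at least 50% in 1 of the libraries, among them Krt5 and Krt14. Of 6 progenitor genes only Pax6, a progenitor transcription factor, reached 50% in both libraries (100% and 100%) and is a member, and Sox2, Vim and Fabp7 had 0% in all 8 H3K27me3 libraries. Of 4 neuronal genes only Dcx did, which lies on a sex chromosome and is no member. Islands hold no expression values, so the labelled sources could be checked only in this way.

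The same promoters could be followed in the 22 libraries the rule did not use, and the first was H3K27me3 in hippocampal tissue. Mean coverage of the members there was 37.3% and 27.6% in Ctrl, with 35.3% and 58.2% in cKO. The other CpG-poor promoters had 5.95%, 3.67%, 5.09% and 11.04%, and the CpG-rich set 64.4%, 59.7%, 53.7% and 75.3%. Members lay between the other sets in each of the 4 libraries. In both Ctrl libraries 554 members (26.6%) were covered over at least 50%, against 2.29% of the other CpG-poor promoters and 56.8% of the CpG-rich set. In bulk samples, fewer cells with a mark and less mark per cell cannot be told apart.

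**Figure D3:**
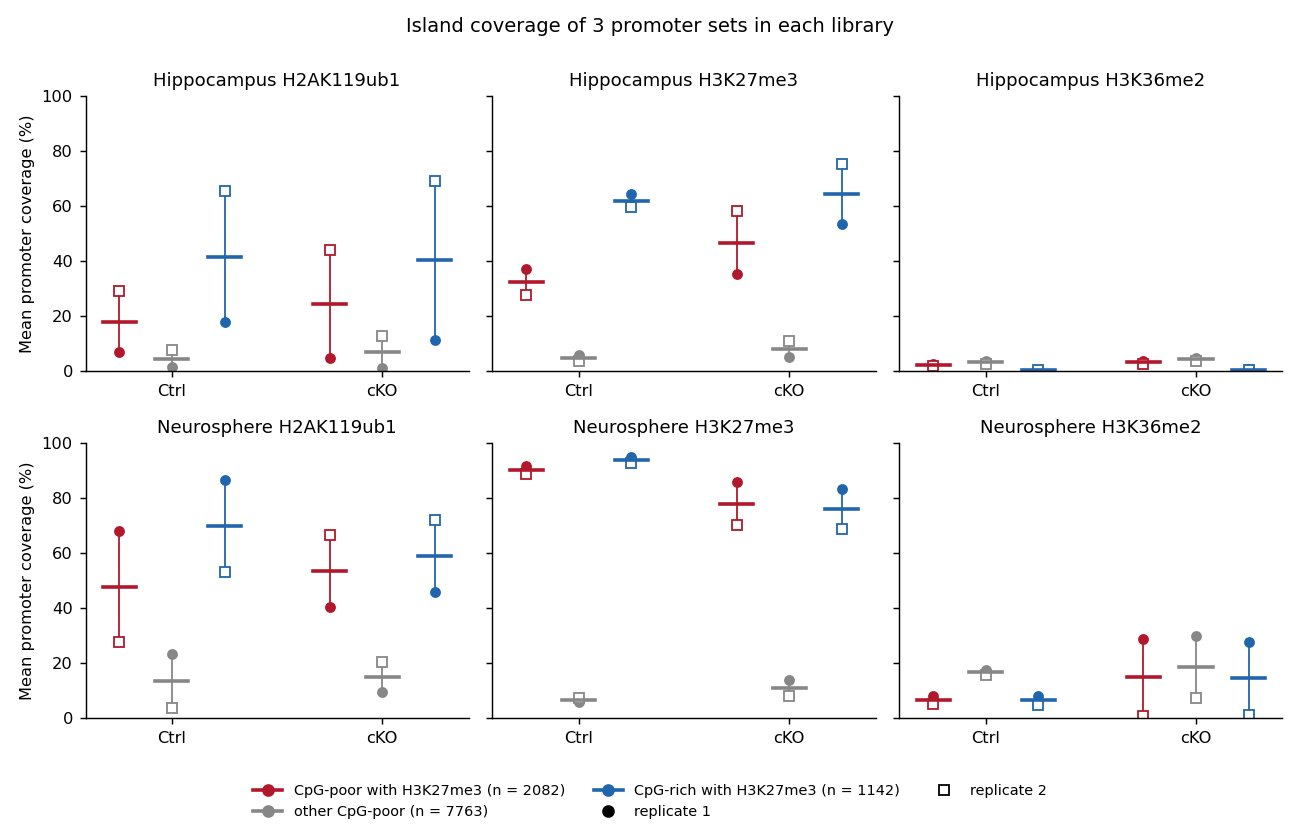
Mean share of promoter bases inside islands (%, vertical axis) in each of the 24 libraries for CpG-poor promoters with neurosphere H3K27me3 (red), other CpG-poor promoters (grey) and CpG-rich promoters with neurosphere H3K27me3 (blue); filled circles are replicate 1, open squares replicate 2, and bars the mean of both. In hippocampal H3K27me3 the red points lay at 27.6 to 58.2%, between the grey (3.67 to 11.04%) and the blue (53.7 to 75.3%) ones, and replicates of H2AK119ub1 were far apart in every set.

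Members divided by their hippocampal H3K27me3. At least 50% of the promoter was covered in all 4 hippocampal libraries at 486 members (23.3%), no island was found in any of the 4 at 434 (20.8%), and 1162 (55.8%) lay between. The first group, called the covered group here, was richer in CpG. Its median CpG ratio was 0.459 against 0.248 in the group with no hippocampal island, and a CpG-rich stretch lay nearby at 48.8% against 10.6%. Developmental transcription factors numbered 65 of the 486 (13.4%) and 5 of the 434 (1.15%). Seen by class, 70.7% of member developmental transcription factors were in the covered group, against 4.55% of muscle genes, 7.69% of germline genes, 11.9% of cytokines and 37.3% of other G protein-coupled receptors. The median length of the neurosphere region was 20.6 kb in the covered group and 14.5 kb in the group without an island.

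The remaining marks followed the same division. In hippocampal H2AK119ub1 the covered group had a mean coverage of 20.4% and 63.0% in Ctrl and 13.3% and 73.8% in cKO. The group with no hippocampal H3K27me3 had 1.32% and 15.0% in Ctrl and 2.03% and 30.04% in cKO, lower in each library. In neurosphere H2AK119ub1 the covered group had 84.9% and 49.2% in Ctrl and 56.1% and 79.8% in cKO, against 57.0%, 20.2%, 32.0% and 58.6%. Hippocampal H3K36me2 ran the other way in every library, with 0.470% and 0.331% in Ctrl and 0.421% and 0.462% in cKO in the covered group. The group with no H3K27me3 island had 7.17% and 5.84% in Ctrl and 10.7% and 7.64% in cKO. Libraries of 1 source come from the same tissue, so these 3 marks are not independent readings of it, and the groups were formed after island coverage was seen.

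**Figure D4:**
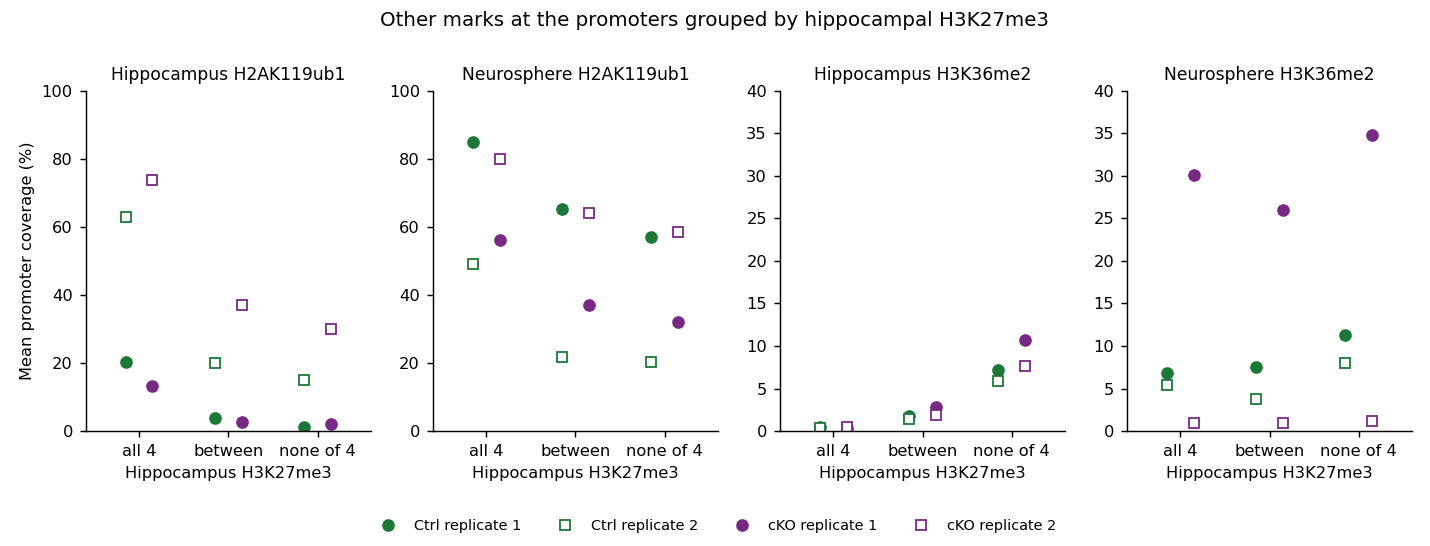
Mean promoter coverage (%, vertical axis) of H2AK119ub1 (axes to 100%) and H3K36me2 (axes to 40%) in each library for members covered over at least 50% in all 4 hippocampal H3K27me3 libraries (n = 486), between (n = 1162) and with no island in any of the 4 (n = 434). Within each library H2AK119ub1 fell from the left group to the right group, and hippocampal H3K36me2 rose from under 0.5% to between 5.84% and 10.7%.

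Tnf, Krt8, Acta1 and Slc6a5, shown above, were in the covered group, and Il6 was in the group with no hippocampal island. Tnf was covered in hippocampal H3K27me3 over 90.2% and 100% in Ctrl and 100% and 100% in cKO. Krt8 and Slc6a5 had 100% in all 4. Acta1 had 100% and 81.2% in Ctrl and 100% and 100% in cKO. Il6 had 0% in all 4 while 80% and 50% was covered in the neurosphere Ctrl libraries. Other members with complete hippocampal coverage were Wnt1 (a morphogen of the dorsal neural tube), Hoxa10, Comp (a cartilage matrix protein), Cyp26c1 (a retinoic acid-degrading enzyme), Nlrp6 (an inflammasome sensor), Grm6 (the glutamate receptor of retinal bipolar cells) and Wfdc21 (a secreted antimicrobial-like protein). Gfap stood apart from these, with 0% in all 4 hippocampal H3K27me3 libraries and 100% and 97.2% in Ctrl neurospheres, where cKO had 52.2% and 0%. The window of Gfap, however, lies 3712 bases upstream of its RefSeq start.

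H2AK119ub1 coverage of the members differed widely between replicates. In neurospheres their mean coverage was 68.1% and 27.8% for Ctrl libraries, with 40.4% and 66.6% for cKO, against 23.4%, 3.70%, 9.70% and 20.6% at the other CpG-poor promoters. The CpG-rich set had 86.6%, 53.4%, 45.8% and 72.2%. Replicates of 1 genotype differed by more than the genotypes did. In both Ctrl neurosphere libraries 556 members (26.7%) were covered over at least 50%, against 2.10% of the other CpG-poor promoters and 51.2% of the CpG-rich set. The hippocampal means were 7.12% and 29.0% for Ctrl, 4.98% and 44.1% for cKO, and 122 (5.86%) reached 50% in both Ctrl libraries.

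H2AK119ub1 in all 8 libraries was a property of few members, most of them in the transcription factor class. At least 50% was covered in all 8 at 32 members. Of these, 22 (68.8%) were in the developmental transcription factor class, against 4.42% of all members. In the covered group were 30 (93.8%), against 23.3% of all members. Their median region length was 48.2 kb, against 17.4 kb over all members. No H2AK119ub1 island was found in any of the 8 at 170 members, of which 0 were developmental transcription factors, with a median region of 6.80 kb. The counts of 32 and 170 were not made for the other promoter sets. Among the 5 members with the highest H2AK119ub1 were 9230102O04Rik, Gata3 (a T-cell and inner ear regulator), Hmx2 (an inner ear homeobox gene) and Tfap2a (a neural crest regulator). Hmx2 was covered over 100% in 7 of the 8 H2AK119ub1 libraries and over 90.7% in hippocampal cKO replicate 1. Gata3 and 9230102O04Rik have overlapping windows and count as 1 site. Wfdc21 had H2AK119ub1 islands in neurospheres only, with 0% in the 4 hippocampal libraries, 86.5% and 85.0% in neurosphere Ctrl and 100% and 96.5% in cKO. Its coverage was 100% in all 8 H3K27me3 libraries.

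**Figure D5:**
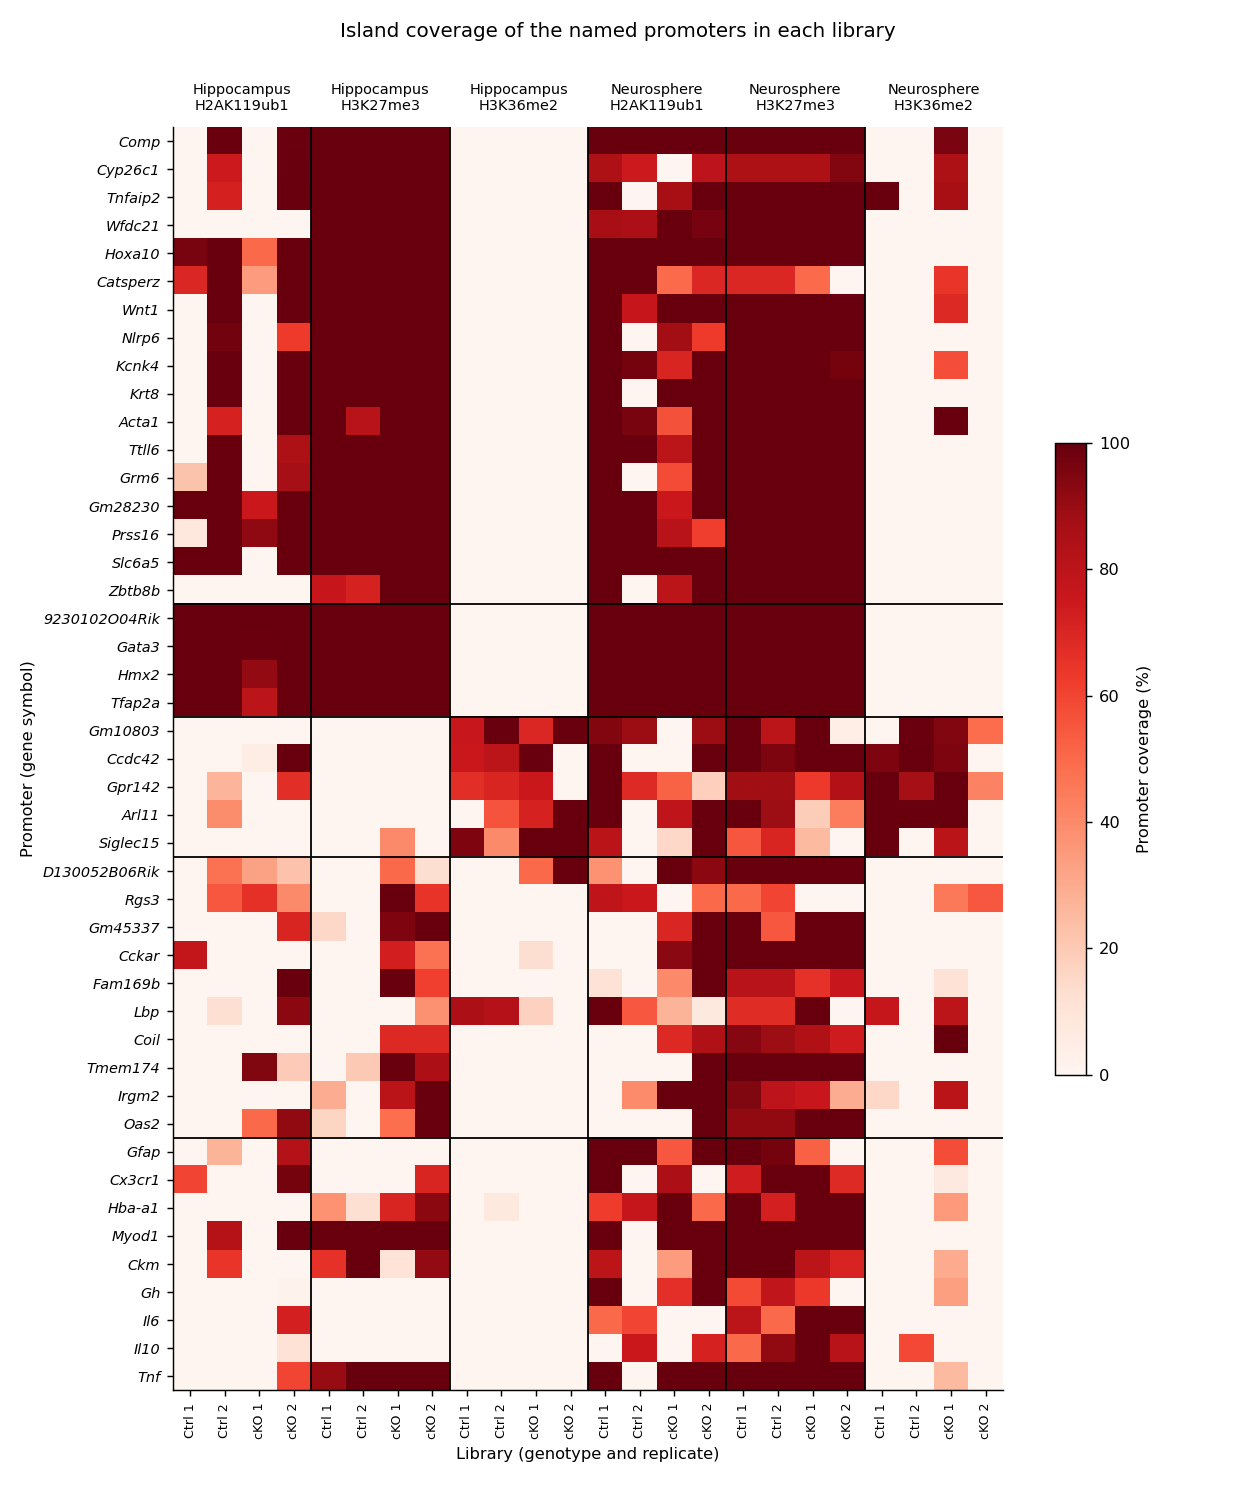
Coverage of the promoters of named members (rows) in each of the 24 libraries (columns, grouped by source and mark), from 0% (white) to 100% (dark red). Rows run from the highest hippocampal H3K27me3 in each class, through the highest H2AK119ub1 and H3K36me2, to the members separated in the most genotype comparisons and the well-known genes, and Krt8 and Slc6a5 are dark in all 8 H3K27me3 libraries.

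H3K36me2 was sparse at the members, and in the hippocampus it was sparse in every set. In neurospheres their mean coverage was 8.17% and 5.07% in Ctrl, against 17.7% and 15.8% at the other CpG-poor promoters and 8.30% and 4.90% in the CpG-rich set. The cKO libraries had 28.8% and 1.01%, the highest and the lowest values of the 4, against 29.98% and 7.57% at the other CpG-poor promoters and 27.8% and 1.34% in the CpG-rich set, so that members and other CpG-poor promoters were close in cKO replicate 1. In the hippocampus the members had 2.58% and 2.07% in Ctrl and 3.89% and 2.78% in cKO. The other CpG-poor promoters had 3.89% and 2.73% in Ctrl and 4.67% and 3.90% in cKO. The CpG-rich set had 0.271%, 0.415%, 0.751% and 0.471% in the same order. All autosomal promoters had 1.90%, 1.39%, 2.46% and 1.97%, below the members in each library. No H3K36me2 island touched 1048 members in any of the 8 libraries, and 0 members reached 50% in all 8. These 2 counts were not made for the other sets.

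Some members nonetheless carried both H3K36me2 and H3K27me3 islands in their promoters in neurospheres. Coverage was taken for each mark separately, and the overlap of their islands base by base was not computed. H3K36me2 covered at least 50% in both Ctrl libraries at 68 members (3.27%), against 11.03% of the other CpG-poor promoters. Of the 68, 22 (32.4%) had no hippocampal H3K27me3 island, against 20.8% of all members, and 17 (25%) were in the covered group, against 23.3%. The 5 members with the highest H3K36me2 were Gm10803, Ccdc42 (a gene needed for sperm formation), Gpr142 (a receptor of pancreatic islets), Arl11 and Siglec15 (a sialic acid-binding receptor of osteoclasts), and the first 4 had 0% in all 4 hippocampal H3K27me3 libraries. Ccdc42 was covered by H3K36me2 over 95.5% and 100% in neurosphere Ctrl, 95.5% and 0% in neurosphere cKO, 75% and 80% in hippocampal Ctrl and 99.5% and 0% in hippocampal cKO. Its neurosphere H3K27me3 was 100%, 95.5%, 100% and 100%, the Ctrl libraries given before the cKO ones. Whether both marks sat in the same cells cannot be told from bulk libraries.

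Between sources, Ctrl H2AK119ub1 was higher in both neurosphere libraries than in both hippocampal ones at 441 of 1733 members with an island (25.4%), against 15.7% of all promoters with an island, and lower at 23 (1.33%, against 1.28%). Ctrl H3K36me2 was higher in neurospheres at 103 of 426 (24.2%), against a larger 36.7% of all promoters, and lower at 25 (5.87%, against 1.18%). The neurosphere Ctrl libraries had more bases inside islands than most hippocampal ones. They covered 127 to 432 Mb with 5025115 to 20561708 counts, and the hippocampal Ctrl libraries 45.7 to 161 Mb with 1015578 to 5117758 counts. Each library was also reduced to the called length of the smallest of its source and mark. With members chosen anew from the shortened islands (2065 promoters), the higher members numbered 332 in H2AK119ub1 and 89 in H3K36me2. The reduction did not make the sources equal in length, and the share over all promoters was not computed for it. Ctrl H3K27me3, whose neurosphere libraries chose the members, was higher in neurospheres at 1496 of 2082 (71.9%, all promoters 40.4%) and lower at 39 (1.87%, all promoters 7.76%), and nothing is read from these counts.

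The study asked whether loss of the CxxC domain changes these marks. For single promoters 2 libraries against 2 allow an exact permutation p no smaller than 0.333, so promoters were counted whose coverage in both cKO libraries lay on the same side of both Ctrl libraries. Such counts are read against the share among all autosomal promoters with an island in that comparison. That share was computed for the main setting only. Counts under other settings have no background beside them and show only how a count moves. The labels do not say that replicates are separate animals, and their spread may be technical. Values of 4 libraries also move with called length, since the hippocampal libraries covered 37.3 to 247 Mb and the neurosphere libraries 127 to 497 Mb.

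In neurosphere H2AK119ub1, 117 of 1841 members with an island (6.36%) were lower in both cKO libraries, against 7.13% of all promoters, and 96 (5.21%) were higher, against 4.56%. Both shares were near the background. The CpG-rich set had 161 of 1097 lower (14.7%) and 16 higher (1.46%). Mean coverage of the members, with the SD of 2 libraries, was 47.9% ± 28.5 for Ctrl against 53.5% ± 18.5 for cKO, and the difference of 5.58 percentage points was inside that spread. It was 25.7 without Ctrl replicate 1 and -14.6 without Ctrl replicate 2. In hippocampal H2AK119ub1, 13 of 1330 members (0.977%) were lower and 46 (3.46%) higher, against 1.69% and 2.04% of all promoters, and the means were 18.1% ± 15.5 in Ctrl and 24.5% ± 27.7 in cKO (SD, n = 2 each). The difference of these means, 6.48 percentage points, became -13.1 without cKO replicate 2. At equal called length, with members chosen anew (2065 promoters), it was -0.645, with 33 members lower and 21 higher. The share over all promoters was not computed there.

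In hippocampal H3K27me3, 291 of 1648 members (17.7%) were higher in both cKO libraries, against 12.4% of all promoters, and 16 (0.971%) were lower, against 2.68%. The means were 32.4% ± 6.89 in Ctrl and 46.8% ± 16.3 in cKO (SD, n = 2 each), and cKO replicate 1 (35.3%) lay between the Ctrl libraries. When each library was reduced to the called length of the smallest, the means over the same members were 22.4% and 27.6% in Ctrl and 21.6% and 34.6% in cKO. With members chosen anew from the shortened islands (2065 promoters), 109 were higher. Without cKO replicate 2 the difference of the means was 2.82 percentage points instead of 14.3. Hba-a1 had 37.2% and 12.2% in Ctrl and 70.0% and 92.2% in cKO.

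H3K36me2 in the hippocampus was higher in both cKO libraries at 33 of 319 members (10.3%), against 7.56% of all promoters, and lower at 15 (4.70%), against 4.18%. The mean was 2.33% ± 0.361 in Ctrl and 3.34% ± 0.784 in cKO (SD, n = 2 each). The groups did not overlap, and they did not overlap either at the other CpG-poor promoters or in the CpG-rich set. In neurospheres 23 of 963 members (2.39%) were lower and 13 (1.35%) higher, against 5.59% and 4.25%. The neurosphere means were 6.62% ± 2.19 in Ctrl and 14.9% ± 19.6 in cKO (SD, n = 2 each), and the difference of 8.28 percentage points became -5.60 without cKO replicate 1.

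Few members moved the same way in several of these 5 comparisons. Coverage was higher in cKO in 2 comparisons at 42 members and in 3 at 1, D130052B06Rik, and lower in 2 at 8 members. Among promoters with an island in at least 2 of the comparisons these were 2.32% higher and 0.431% lower for the members, against 1.12% and 0.830% for all autosomal promoters. Oas2 (an interferon-induced synthetase) had 16.3% and 0% in hippocampal Ctrl H3K27me3 and 48.7% and 100% in cKO. Its hippocampal H2AK119ub1 was 0% and 0% for Ctrl, 50% and 91.3% in cKO. Cckar (a cholecystokinin receptor) had 0% and 0% in neurosphere Ctrl H2AK119ub1 and 92.6% and 100% in cKO, and its hippocampal H3K27me3 was 0% and 0% against 72.4% and 47.4%. Lbp (a lipopolysaccharide-binding protein) moved the other way in neurosphere H2AK119ub1, with 100% and 55% in Ctrl and 27.3% and 7.30% in cKO. These genes were picked by that pattern, so their values are a description.

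Neurosphere H3K27me3 itself chose the members, so its genotype values are a description and nothing is read from them. Ctrl libraries had a mean coverage of 91.7% and 88.8%, cKO libraries 85.8% and 70.5%, and 325 of 2082 members (15.6%) were lower in both cKO libraries and 161 (7.73%) higher, where all promoters had 13% and 9.21%. Applied to the cKO libraries, the same rule chose 1813 CpG-poor promoters. Of these 1479 were shared, 71.0% of the Ctrl list and 81.6% of the cKO list. No H3K27me3 island of either cKO neurosphere library touched 51 members.

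Read counts per region were compared by the quasi-likelihood test of edgeR, adjusted after Benjamini and Hochberg, on all autosomal regions called in all 4 libraries of a comparison. A region without an island in 1 of the 4 libraries could not be tested. The tested regions held 202, 781 and 41 of the 2082 members in hippocampal H2AK119ub1, H3K27me3 and H3K36me2. They held 904 and 84 in neurosphere H2AK119ub1 and H3K36me2. At an adjusted p of 0.05, 0 regions were called in each of the 5 comparisons that the rule did not use (0% of those tested). At an unadjusted p of 0.05 the member regions numbered 2 of 175 in hippocampal H2AK119ub1 (all regions 1.09%), 18 of 670 in hippocampal H3K27me3 (3.54%) and 1 of 41 in hippocampal H3K36me2 (4.93%). They numbered 2 of 700 in neurosphere H2AK119ub1 (1.67%) and 1 of 82 in neurosphere H3K36me2 (2.13%). DESeq2 called 2 of 700 member regions in neurosphere H2AK119ub1 (0.286%, against 0.529% of all regions) and 0 in the other 4. Without Ctrl replicate 1, edgeR called 150 of the 700 in neurosphere H2AK119ub1 (21.4%, against 11.4% of all regions), 7 of them lower in cKO. Without cKO replicate 1 it called 26 of 82 in neurosphere H3K36me2 (31.7%, against 5.88% of all regions), all lower.

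The median log2 difference of the member regions, cKO minus Ctrl, was -0.15 in hippocampal H2AK119ub1, -0.04 in hippocampal H3K27me3, 0.00 in neurosphere H2AK119ub1 and -0.45 in neurosphere H3K36me2. In the last, 67 of 82 member regions (81.7%) had lower counts in cKO, against 49.1% of all regions. That direction rested on cKO replicate 2, since without it 25 of 82 (30.5%) were lower and the median was 0.15. The region of Usp44 (a deubiquitinase) had 252 and 136 counts in Ctrl, falling to 63 and 54 in cKO. For Usp44 the log2 difference was -1.34 with a standard error of 0.49 (edgeR adjusted p = 0.962). Cox6a2, a muscle subunit of cytochrome c oxidase, had 66 and 41 counts of neurosphere H2AK119ub1 in Ctrl, with 169 and 212 in cKO, a log2 difference of 2.26 with a standard error of 0.64 (edgeR adjusted p = 1.00). Resp18, a protein of endocrine secretory granules, went from 453 and 373 counts to 70 and 111 in the same mark, a log2 difference of -1.88 with a standard error of 0.66 (edgeR adjusted p = 1.00). Hippocampal H3K27me3 counts of Cass4, a scaffold protein, were 176 and 49 in Ctrl, with 415 and 558 in cKO, a log2 difference of 1.52 with a standard error of 0.50 (edgeR adjusted p = 0.994). The region of Myl3 and Pth1r (cardiac myosin light chain and the parathyroid hormone receptor) had 594 and 420 counts against 144 and 412, a log2 difference of -1.68 with a standard error of 0.56 (edgeR adjusted p = 0.994). Hippocampal H3K36me2 counts of Noxa1, an activator of NADPH oxidase, were 71 and 159 in Ctrl, with 463 and 472 in cKO, a log2 difference of 1.53 with a standard error of 0.58 (edgeR adjusted p = 0.968). In none of these named regions did the difference pass the adjusted threshold.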

How the data were processed

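Histone ChIP-seq of mouse hippocampus at postnatal day 0, and of passaged neurospheres started from hippocampi of that age, was analysed from island lists. Per the submitters' notes and the study's methods, the authors trimmed reads with cutadapt, aligned them to mm10 with Bowtie2 (version 2.4.5) and ran SICER on every library with its input (window 200 bp, gap 600 bp, FDR 0.01; its version is not given in the sources used here). The deposited values are raw counts of reads per island, with no normalisation. No count is given between islands, so the sum in islands is not the sequencing depth, and intervals on counts were not given. The 12 input samples were not analysed here.

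Promoters came from GENCODE vM21, with sequence from GRCm38 and RefSeq starts. Coverage is the share of promoter bases inside islands, computed with Python 3.11.15, and no filter was set on islands. Merged regions called in all 4 libraries of a comparison were tested with edgeR 4.0.16 (TMM, quasi-likelihood, adjusted p under 0.05) in R 4.3.3. DESeq2 1.42.0 was an alternative. Scripts were tested on simulated data. Members, gene classes and named genes were chosen with earlier results of these data known. Named genes were the member with the highest hippocampal H3K27me3 in each class with at least 5 members, the 5 highest in H2AK119ub1 and in H3K36me2, up to 10 separated in the most comparisons, 3 on each side of the limit, the listed well-known genes and the 3 regions of lowest p in each comparison. The 5 printed sequences were chosen after values were seen. Some genes that this rule names are not reported here.

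Alternatives were another promoter window, coverage limit, CpG definition, island length, called length, normalisation and count minimum, 1 member per region, a replicate block and leaving out each library. The labels number replicates 1 and 2, with nothing to say that a number is shared between genotypes.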

Additional observations from a re-analysis of the deposited data

Results flagged for a closer look

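4 of the promoters named for moving the same way in several comparisons had H3K27me3 coverage that was higher in both cKO libraries than in both Ctrl libraries of the hippocampus and lower in both cKO libraries of neurospheres. Over all members, 36 had this pattern, 2 the reverse, 23 were higher in cKO in both sources and 2 lower in both. The share over all promoters was not computed for these counts. The difference between the sources was not tested. The neurosphere Ctrl values chose the members as high, which favours a lower value in cKO. For Rgs3, a regulator of G protein signalling, the hippocampal change of 82.5 percentage points and the neurosphere change of -55.0 were 137.5 apart, with 0% and 0% against 100% and 65.0% in the hippocampus and 50% and 60% against 0% and 0% in neurospheres. For Irgm2, an interferon-induced GTPase, they were 75.4 and -34.6, 110.0 apart, in a window around a start 15359 bases upstream of the RefSeq start. For Fam169b they were 80.5 and -10, 90.5 apart. For Coil, which encodes coilin of Cajal bodies, they were 68.7 and -12.5, 81.2 apart.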

How the results depend on the processing

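With 2 libraries per group and no count outside islands, small differences could not be resolved, and coverage moved with called length. Of 207 main values recomputed under an alternative 154 stayed within the limits set for a change and 53 moved. The limit for a coverage difference was the spread of the replicates, and 6 of 60 such differences took the other sign within it. The number of members was 592 with both CpG conditions and 1251 with gene starts within 500 bases of a RefSeq start, an alternative chosen after seeing the data. Members lower in cKO numbered 8 (hippocampal H3K27me3) and 7 (hippocampal H3K36me2) with a 1 kb window. With an 80% limit they were 7 in hippocampal H2AK119ub1, 9 in H3K27me3, 7 in H3K36me2 and 10 in neurosphere H3K36me2, and members with more H3K36me2 in neurospheres 61. With both CpG conditions they were 3, 2 and 6 in the hippocampus, 42 in neurosphere H2AK119ub1 and 7 in neurosphere H3K36me2, and members higher in neurospheres 127 for H2AK119ub1 and 28 for H3K36me2. Without CpG-rich stretches they were 6 in hippocampal H2AK119ub1, 9 in hippocampal H3K27me3 and 77 in neurosphere H2AK119ub1, and at equal called length 33 and 29 in the first 2, where higher members went from 46 to 21 and from 291 to 109. Near RefSeq starts they were 10 in hippocampal H3K27me3, 68 in neurosphere H2AK119ub1 and 11 in neurosphere H3K36me2, with 266 and 62 higher in neurospheres for H2AK119ub1 and H3K36me2. Fewer promoters enter under the 80%, CpG and RefSeq rules, and other causes were not tested. The 1 kb window, the island length and the equal called length also chose the members anew. Counts of separated members under an alternative have no share over all promoters beside them.

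Leaving out 1 library changed the cKO minus Ctrl coverage to between -13.1 and 26.0 points in hippocampal H2AK119ub1, 2.82 and 25.8 in hippocampal H3K27me3, 0.455 and 1.56 in hippocampal H3K36me2, -14.6 and 25.7 in neurosphere H2AK119ub1 and -5.60 and 22.2 in neurosphere H3K36me2. A separation needs fewer libraries then, and members lower in cKO numbered 13 to 298, 35 to 196, 26 to 67, 154 to 466 and 25 to 101 in the same order, and members higher 46 to 802, 352 to 949, 40 to 142, 134 to 720 and 17 to 738. Members higher in neurospheres numbered 448 to 1277 for H2AK119ub1 and 104 to 243 for H3K36me2, and the rule alone chose 2472 to 2545. The edgeR calls in member regions, 0 with all libraries, were 0 to 2 in hippocampal H3K27me3 (2 without cKO replicate 1, 0.299% against 0.525% of all regions), 0 to 150 in neurosphere H2AK119ub1 (150 without Ctrl replicate 1), 0 to 570 in neurosphere H3K27me3 (570 without cKO replicate 1, 41.2% against 21.5% of all regions) and 0 to 26 in neurosphere H3K36me2 (26 without cKO replicate 1). There the lone library is assumed to vary like the other group. DESeq2 called 2 in neurosphere H2AK119ub1 and 70 in neurosphere H3K27me3 (5.06%, against 6.82% of all regions). The neurosphere H3K27me3 calls use the libraries that chose the members, and nothing is read from them.

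With the replicate block, edgeR called 2 member regions in hippocampal H3K27me3 (0.299%, against 0.297% of all regions), both lower in cKO, and 0 in the other 5 comparisons. Same-numbered libraries deviated with correlations of 0.327, 0.271 and 0.016 in hippocampal H2AK119ub1, H3K27me3 and H3K36me2 and of -0.326, -0.127 and 0.310 in neurospheres, so the pairing was not shown. The crossed pairing, added after seeing the data, called 0 member regions in both neurosphere Polycomb marks.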

Other observations

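Both Polycomb marks covered at least 50% of the promoter in all 16 of their libraries at 30 members. H3K27me3 did so in all 8 libraries at 414. The neurosphere Ctrl H3K27me3 libraries are among these, and there the rule itself required 50%. Other CpG-poor promoters fail by that rule, and the counts were not made for the CpG-rich set. Members of the keratin class (47 in 36 regions) had low neurosphere H2AK119ub1, with 29.8% and 9.20% mean coverage in Ctrl and 28.0% and 53.0% in cKO. All members had 68.1% and 27.8% in Ctrl and 40.4% and 66.6% in cKO. Other classes were also low in Ctrl, with 39.2% and 6.54% for zinc finger genes and 58.3% and 0% for the 3 chemosensory receptors. The neurosphere Ctrl H3K27me3 of the keratin members, which chose them, was 93.5% and 88.9%. Keratin members had neurosphere H3K36me2 of 0.331% and 0% for Ctrl libraries, 3.70% and 0% for cKO ones, against 28.8% in cKO replicate 1 over all members. Muscle genes had 50.2% there. No test was run on these classes.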
